A study of Mus musculus with 16 samples.

Results

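Histone genes and histone variant genes were followed in mouse primordial germ cells (PGCs), the cells of the embryo from which sperm and eggs descend. In the deposited gene tables, 85 of 26219 genes carried a symbol starting with Hist1h to Hist4h, H2af, H3f3 or H1f. Of these, 22 reached 5 RPM or more, the authors' read unit scaled to the reads assigned to genes in each library, in at least 2 of the 8 wild-type libraries and were kept. They comprised 13 of 69 clustered histone genes and 9 of 16 histone variant genes. The other 63 genes missed that level, and 3 of them were listed at 0 in all 16 libraries. Every kept gene reached 5 RPM in libraries of more than 1 wild-type group, those of Hist1h3h being E13.5 males and females alone. Just inside the limit, the second-highest wild-type values were 5.02 RPM for Hist1h2ac and 5.12 RPM for Hist1h2ag and Hist1h2ap, and just outside it they were 4.97 RPM for Hist1h4k and 4.93 RPM for Hist1h3i.

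The series concerns PRDM1 (BLIMP1), a repressor of transcription without which PGCs are not specified. All 8 floxed libraries were of strain C57BL/6 at E11.5 (E for embryonic day), 1 day after the pregnant females were injected at E10.5 with the Cre inducer 4-OHT (4-hydroxytamoxifen), 3 mg for each 25 g of weight. The 4 controls were Prdm1(flox/flox); Rosa26(neo-EYFP/+), and the 4 CKO-labelled samples (conditional knockout) had in addition Dppa3-MCMP(Tg/0), an inducible Cre transgene driven by the PGC gene Dppa3. The 8 wild-type libraries were Dppa3(EGFP/+) on a mixed ICR and C57BL/6 background, 2 each at E10.5, at E11.5, and from males and from females at E13.5. Cells came from dissociated gonads. The protocols describe sorting on EYFP and with an antibody against SSEA-1 without tying either to a group, so a difference in sorting between the floxed groups cannot be told apart from the genotype. The Cre transgene likewise separates the floxed groups. The labels name no separate embryos or litters for replicates and do not say whether embryos were pooled, so the p-values reflect only how far these libraries spread, and that may be technical.

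Clustered histone genes lie in a few dense gene groups and supply the bulk of the histones laid down behind the replication fork. Their mRNAs are made in S phase, and most end in a conserved stem-loop in place of a poly(A) tail. Variant histone genes are expressed outside S phase too, mostly have polyadenylated mRNAs and place special histones at sites such as active genes, damaged DNA or silent chromatin. The complementary DNA was primed here with oligo(dT), so a clustered gene was measured through whatever polyadenylated transcripts it made. Levels are therefore compared between libraries and not between genes, and RPM was not divided by gene length.

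The stem-loop was read from gene models of GENCODE M21, as the 16-base motif of 6 paired bases on either side of a 4-base loop. It was present in the models of 10 of the 13 clustered genes kept and of 33 of the 56 clustered genes that missed the level. Among the 9 variants kept, H2afx, which encodes H2A.X, the histone phosphorylated around DNA breaks, was the 1 gene with it. The forms found in the kept genes are shown because they mark the replication-type end of a histone mRNA, with the loop in capitals and each shown as DNA, 5′ to 3′.
H2afx: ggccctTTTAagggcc
Hist1h4i: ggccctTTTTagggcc
Hist1h3c: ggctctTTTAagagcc
Hist3h2a, Hist1h1c, Hist1h3a and the H2A genes Hist1h2ac, Hist1h2ae, Hist1h2ag, Hist1h2ao and Hist1h2ap: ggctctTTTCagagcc
The models of Hist1h2bc, Hist1h3h and Hist1h1a held none. In 6 of the 10 clustered genes the model ran on for more than 50 bases after the loop, up to 2010 bases in Hist1h2ac, and in H2afx it ran on for 822 bases. Near-identical copies could share reads. At least 50% of the 30-base words in the last 300 bases occurred in another gene for 4 of the 13 clustered genes kept (Hist1h2ap, Hist1h3h, Hist1h2ao and Hist1h2ag) and for 35 of the 56 that missed the level, so the values of those 4 genes are uncertain. The share was 47.6% for Hist1h3c and for Hist1h3a, just under that cut, 27.7% for Hist1h2ae, 10.3% for Hist1h2bc and 0% for each variant kept. Shared reads may thus bear on genes below the cut too. How reads that map to several genes were counted is not given in the sources used here. Models shorter than the RefSeq span of the gene, such as that of Hist1h3h (411 against 488 bases), may lack the end of the transcript. A loop missing from such a model, or words it shares, need not hold for the full transcript, so these counts describe models.

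Of the clustered genes kept, 12 lie on chromosome 13 between 21717628 and 23764412, and Hist3h2a lies on chromosome 11 from 58954685 to 58955192 (RefSeq, GRCm38.p6). Hist1h2bc, the only H2B gene of 19 that was kept, runs from 23684199 to 23692480 on chromosome 13, and its start lies 239 bases from that of the H2A gene Hist1h2ac on the other strand. Promoter windows around an annotated start site were found in the RefSeq table for 19 of the 22 genes. That site was the 5′ end of the gene's span for 15 of them and lay inside the span for 4 (H3f3b by 1535 bases, H2afy2 by 740, H2afy by 76 and H2afv by 68), so the windows of H3f3b and H2afy2 are those of a start within the gene and not of its outermost start. The window of Hist1h2ac is shown because it spans the whole gap to Hist1h2bc, and those of H3f3a and H3f3b because the pair encodes 1 protein and moved in opposite directions below. Capitals mark CCAAT and TATAAA on either strand (ATTGG and TTTATA when read from the other strand), motifs common in histone promoters.
Hist1h2ac, chr13:23683910-23684209, minus strand: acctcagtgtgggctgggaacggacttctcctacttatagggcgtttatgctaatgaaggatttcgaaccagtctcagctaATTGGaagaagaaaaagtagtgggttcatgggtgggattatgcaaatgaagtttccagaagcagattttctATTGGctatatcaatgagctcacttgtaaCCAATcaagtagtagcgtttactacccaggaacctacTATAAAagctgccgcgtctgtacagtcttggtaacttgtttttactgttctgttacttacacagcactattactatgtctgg
H3f3a, chr1:180813556-180813855, minus strand: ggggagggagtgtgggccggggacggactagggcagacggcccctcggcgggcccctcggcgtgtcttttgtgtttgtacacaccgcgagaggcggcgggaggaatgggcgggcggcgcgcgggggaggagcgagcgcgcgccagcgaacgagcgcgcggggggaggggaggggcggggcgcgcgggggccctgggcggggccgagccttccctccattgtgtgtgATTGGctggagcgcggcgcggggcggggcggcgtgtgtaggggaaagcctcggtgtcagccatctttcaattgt
H3f3b, chr11:116024455-116024754, minus strand: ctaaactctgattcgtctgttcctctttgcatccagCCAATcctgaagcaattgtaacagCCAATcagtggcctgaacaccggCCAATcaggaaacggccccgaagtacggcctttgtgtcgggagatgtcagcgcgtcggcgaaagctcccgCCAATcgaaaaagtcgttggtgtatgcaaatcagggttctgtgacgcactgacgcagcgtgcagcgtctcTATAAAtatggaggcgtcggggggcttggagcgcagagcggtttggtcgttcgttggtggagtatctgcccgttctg
CCAAT stood in 10 of 11 windows of clustered genes kept (90.9%), in 6 of 8 windows of variants (75%) and in 37.4% of all 32851 windows in the table. TATAAA stood in 5 of the 11 (45.5%), in 1 of the 8 (12.5%), that of H3f3b, and in 13.6% of all windows. These are matches of letters and show no binding.

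From the steps between low values, floxed libraries held some 2798000 to 5032000 reads and wild-type libraries 1485000 to 4783000, and 3 reads corresponded to 0.596 to 2.02 RPM. That floor and the counting intervals below reflect counting error alone, because copies made by PCR are not separate molecules. The 12 PGC markers summed to 3916 to 9749 RPM per library and none was at 0 in a whole group. Somatic and mesenchymal markers (11 genes) summed to 4.66 to 16.2 RPM at E11.5 and E13.5 in the wild type and to 60.5 to 64.3 RPM at E10.5. In the floxed set they summed to 12.9 to 73.2 RPM in controls and 9.76 to 260 RPM in CKO-labelled libraries. In bulk RNA, fewer expressing cells and less RNA per cell cannot be told apart. Prdm1 itself was at 50.7 to 73.0 RPM in controls and 76.6 to 89.4 RPM in CKO-labelled libraries. Its 3′ tag does not show whether the floxed exons were removed, so those libraries are called CKO-labelled.

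Between E11.5 and E13.5, 5 of the 13 clustered histone genes fell in male PGCs (15.9% of all 10749 genes tested were called lower there). In females 3 of the 13 fell (20.0% of all genes) and 1 rose. The H2B gene Hist1h2bc was among those that fell in both. Its level was 129 and 138 RPM in the E10.5 libraries, 88.2 and 96.8 RPM in those of E11.5, 9.69 and 5.99 RPM in E13.5 males, and 13.8 and 11.51 RPM in E13.5 females. Every E13.5 library lay below every earlier one. Against E11.5 the log2 fold change was -3.43 ± 0.22 (SE) in males (limma, adjusted p = 4.06e-13) and -2.78 ± 0.22 in females (adjusted p = 4.07e-11), with the mean in males at 8.47% and in females at 13.7% of that at E11.5. All fold changes were taken on log2(RPM + 1), which compresses those of low genes, and both contrasts share the E11.5 libraries.

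**Figure D1:**
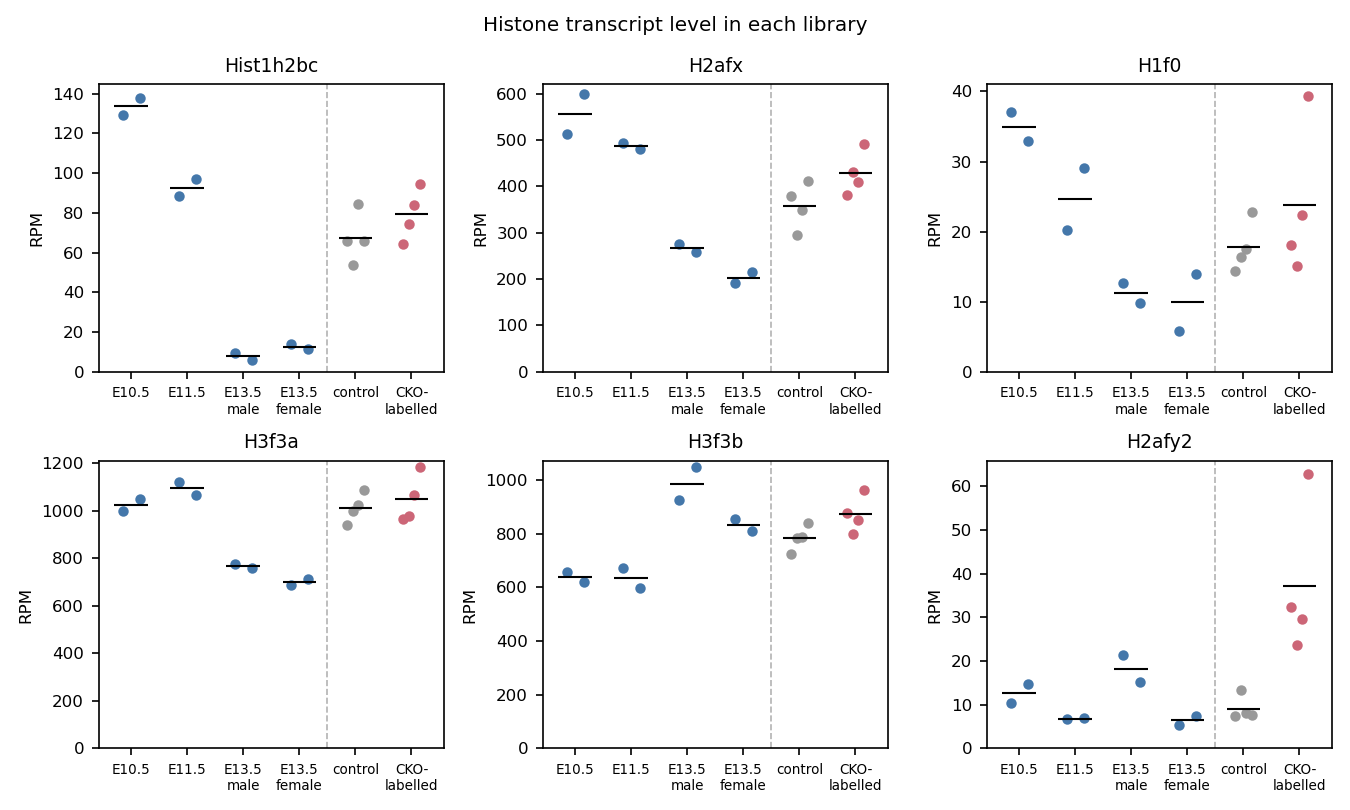
RPM of 6 histone genes in each library (points) with the group mean (line), for 4 wild-type groups of 2 libraries left of the dashed line and 2 floxed groups of 4 right of it, the sets coming from separate tables. Hist1h2bc stayed at or below 13.8 RPM at E13.5 against at least 88.2 RPM at E10.5 and E11.5, and H2afy2 was at 23.6 to 62.9 RPM in CKO-labelled libraries against 7.36 to 13.3 RPM in controls.

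Linker histone and H2A genes made up the other clustered genes that fell. Hist1h1a, which encodes the linker histone H1.1, was at 8.76 and 7.40 RPM at E11.5, at 0 and 0.704 RPM in males and at 6.27 and 2.47 RPM in females. The male libraries held 2 reads of it in all against 39 at E11.5, a ratio of 0.0439 per read sequenced (exact 95% interval 0.00514 to 0.170, counting error only), and the gene was called lower (limma, adjusted p = 6.15e-05). Hist1h1c, encoding the linker histone H1.2, was at 12.1 and 7.40 RPM at E11.5, 5.01 and 1.76 RPM in males and 2.51 and 6.03 RPM in females, lower in both (adjusted p = 0.0168 and 0.0450 by limma). Neither sex overlapped with E11.5 for this gene.

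Hist3h2a, an H2A gene outside the chromosome 13 clusters, fell from 8.76 and 11.7 RPM to 2.34 and 3.52 RPM in males and to 5.44 and 3.02 RPM in females, again with no overlap (limma, adjusted p = 0.00368 and 0.0204). Its annotated span overlaps Trim17, which was listed at 0 in all libraries. Hist1h2ao, an H2A gene whose 3′ sequence is shared with Hist1h2ap, was at 20.9 and 15.7 RPM at E11.5 and 8.02 and 8.10 RPM in males, where it was called lower (adjusted p = 0.0108 by limma), and at 15.7 and 12.9 RPM in females, where it was not.

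The H3 gene Hist1h3h went the other way. It was at 1.35 and 3.13 RPM at E11.5, 6.01 and 3.17 RPM in males and 8.36 and 6.30 RPM in females, and it was called higher in females and not in males (log2 fold change 1.41 ± 0.46, limma, adjusted p = 0.0117), with no call for females against males. The gene met the level rule through E13.5 libraries alone, so the rule favours a rise toward E13.5 and the call is no independent evidence of one. The 1.35 RPM of E11.5 replicate 1 lay below the 2.02 RPM that 3 reads make in that library. Of the 3′ words in the model of Hist1h3h, 91.9% occur in other H3 genes, so which copy gave these reads is uncertain. That model may lack the end of the transcript.

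Among the variants, the genes for H2A.X and for the linker histone H1.0 fell in both sexes. H2afx was at 494 and 481 RPM at E11.5, 276 and 258 RPM in males and 192 and 214 RPM in females. The log2 fold changes were -0.87 ± 0.10 (SE; limma, adjusted p = 9.06e-08) and -1.26 ± 0.10 (adjusted p = 5.93e-11), and no E13.5 library reached an earlier one. H1f0, whose product H1.0 is best known from differentiated, slowly dividing cells, was at 20.2 and 29.0 RPM at E11.5, 12.7 and 9.86 RPM in males and 5.85 and 14.0 RPM in females. Its log2 fold changes were -1.05 ± 0.32 and -1.32 ± 0.32 (limma, adjusted p = 0.00968 and 0.00105).

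H3f3a and H3f3b, which encode the same H3.3 protein from different genes, moved in opposite directions. H3f3a was at 1120 and 1066 RPM at E11.5, 775 and 757 RPM in males and 689 and 710 RPM in females, a log2 fold change of -0.51 ± 0.08 and -0.64 ± 0.08 (limma, adjusted p = 1.16e-05 and 2.44e-07). H3f3b was at 670 and 598 RPM at E11.5, 924 and 1048 RPM in males and 852 and 809 RPM in females, a log2 fold change of 0.64 ± 0.09 and 0.39 ± 0.09 (adjusted p = 1.79e-06 and 0.000587 by limma). No E13.5 library overlapped with the E11.5 libraries for either gene. The quotient of their RPM values, H3f3b over H3f3a, was 0.656 and 0.592 in E10.5 libraries, 0.598 and 0.561 in E11.5 libraries, 1.19 and 1.38 in males, and 1.24 and 1.14 in females. Their RPM summed to 1664 to 1790 at E11.5, 1699 to 1804 in males and 1520 to 1541 in females, so the sum overlapped between E11.5 and males. Because RPM is not divided by length, the quotient is not a ratio of molecules. Its change was not tested.

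**Figure D2:**
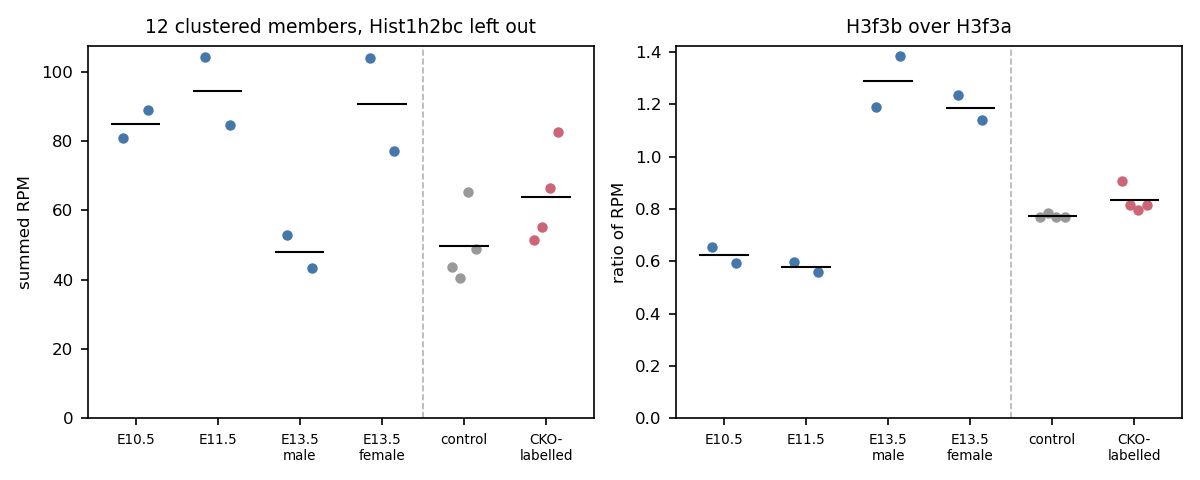
Left, RPM of 12 clustered histone genes summed in each library, without Hist1h2bc; right, RPM of H3f3b divided by that of H3f3a. Points are libraries and lines group means. The sum was 43.3 and 52.8 RPM in E13.5 males and at least 77.0 RPM in the other wild-type libraries, and the quotient was above 1.1 in each E13.5 library and at or below 0.656 at E10.5 and E11.5.

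The other variants were called in 1 sex or in neither. H2afy2 encodes macroH2A2, which like macroH2A1 carries a large extra domain and is found in repressed chromatin. It was at 6.73 and 6.83 RPM at E11.5, 21.4 and 15.1 RPM in males and 5.44 and 7.40 RPM in females, and it rose in males (log2 fold change 1.29 ± 0.34, limma, adjusted p = 0.00388). The 11 somatic and mesenchymal markers summed to 6.06 and 7.12 RPM at E11.5, 15.4 and 16.2 RPM in males and 5.23 and 4.66 RPM in females, high where H2afy2 was, while at E10.5 they summed to 60.5 and 64.3 RPM with H2afy2 at 10.4 and 14.7 RPM. The 4 pre-granulosa markers summed to 4.71 and 3.99 RPM at E11.5, 1.34 and 2.47 RPM in males and 9.20 and 10.1 RPM in females. Markers of Sertoli cells, the supporting cells of the testis (4 genes), summed to 1.35 and 1.99 RPM at E11.5. In males they summed to 10.7 and 2.82 RPM and in females to 1.25 and 1.64 RPM. The part of these cells in the change of H2afy2, and in its difference between the sexes below, was not tested. H2afj, which encodes H2A.J, was at 38.4 and 34.2 RPM at E11.5, 18.7 and 32.0 RPM in males and 20.9 and 22.5 RPM in females, and it fell in females (adjusted p = 0.0203 by limma). H2afz and H2afv, the pair of genes for H2A.Z, which flanks active promoters, and H2afy, the gene for macroH2A1, were not called against E11.5 in either sex. Their log2 fold changes ran from -0.48 to 0.12.

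In males 10 of the 22 genes were called against E11.5, 2 higher and 8 lower, beside 38.2% of all genes tested (22.3% higher and 15.9% lower), and 20 had groups that did not overlap, beside 66.2%. In females 9 were called, 2 higher and 7 lower, beside 51.2% (31.2% higher and 20.0% lower), and 15 had groups that did not overlap, beside 74.9%. The share called was thus near the background in both sexes, while the direction was mostly downward. The median log2 fold change was -0.94 over the clustered genes in males, 12 of the 13 being negative, and -0.48 over the variants, beside 0.11 over all genes. Of the clustered genes, Hist3h2a, Hist1h1a, Hist1h2ac, Hist1h2ae, Hist1h2ag and Hist1h2ap reached 5 RPM in no male library and were kept through other groups. The level rule can thus favour negative signs in males, so these signs, and the male calls of Hist1h1a and Hist3h2a, are no independent evidence. In females the medians were -0.16, with 7 of 13 negative, and -0.33, beside 0.13. The shift of all genes was 0.03 and 0.02 with median-ratio scaling, and 10 of 13 clustered genes were negative in females with quantile normalization.

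Of these calls, 6 in males (Hist1h2bc, Hist1h1a, Hist3h2a, H2afx, H3f3a and H3f3b) and 3 in females (Hist1h2bc, H2afx and H3f3a) held in every alternative that tested the gene. With 1 library left out, calls in males ended for Hist1h2ao without E11.5 replicate 1 (limma, adjusted p = 0.0848) or male replicate 1 or 2 (0.0628 and 0.0625), for Hist1h1c without E11.5 replicate 1 or male replicate 2 (0.136 and 0.262), for H1f0 without E11.5 replicate 2 or male replicate 2 (0.113 and 0.122) and for H2afy2 without male replicate 1 (0.0744). In females they ended for H2afj without E11.5 replicate 1 or either female replicate (limma, adjusted p = 0.0949, 0.105 and 0.0640), for Hist1h3h and Hist1h1c without E11.5 replicate 1 (0.104 and 0.254) or female replicate 1 (0.115 and 0.420), for Hist3h2a without E11.5 replicate 2 or female replicate 2 (0.110 and 0.226) and for H1f0 without female replicate 1 (0.0814).

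**Figure D3:**
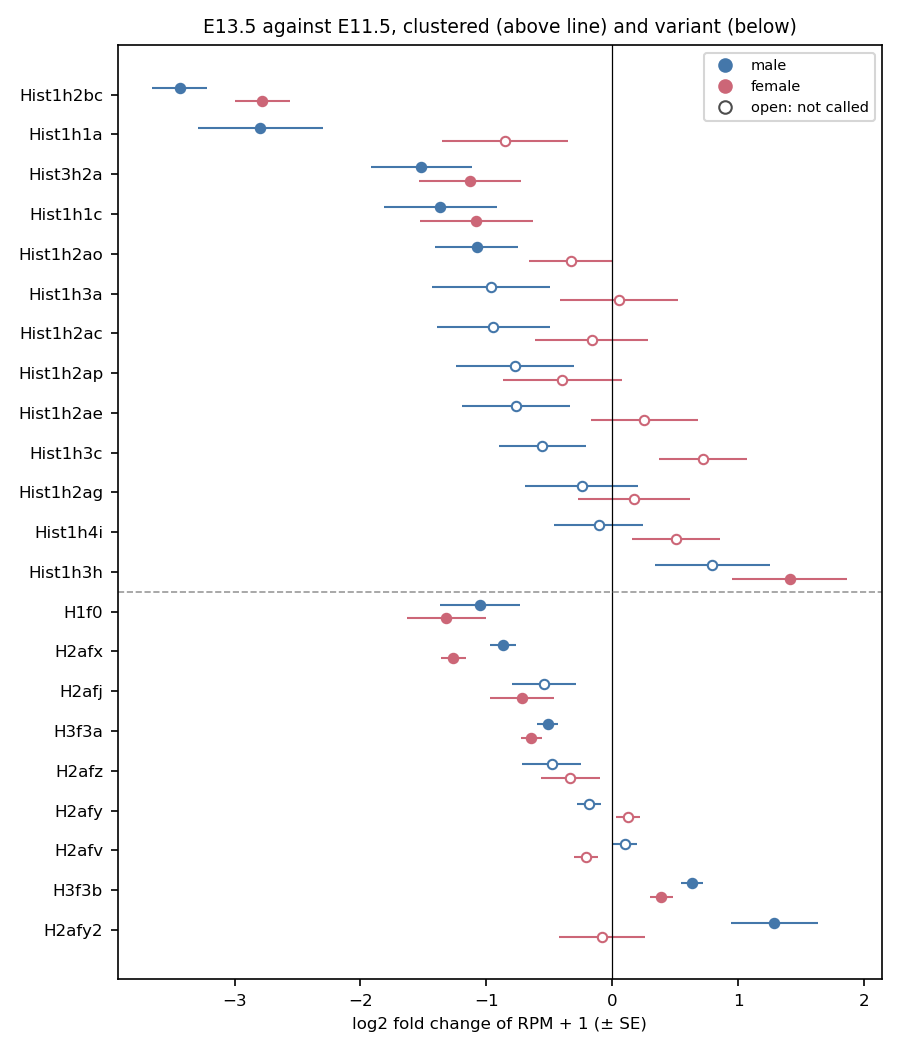
Log2 fold change (RPM + 1, ± SE) of each of the 22 genes at E13.5 against E11.5, in males and females, n = 2 libraries per group, clustered genes above the dashed line and variants below it. Filled points passed the test (limma, adjusted p under 0.05). In males 12 of 13 clustered genes lie below 0, some of them kept through other groups with no male library at 5 RPM. Hist1h2bc lies farthest to the left in both sexes, at -3.43 and -2.78.

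At E13.5 male PGCs stop dividing and female PGCs enter meiosis. Genes of both classes were called between the sexes there, the share over the 22 genes being near that of all genes. Of the 13 clustered genes 3 were higher in females and 0 lower, and of the 9 variants 1 was higher and 4 lower (21.2% of all genes were called higher and 16.4% lower). Hist1h3c, an H3 gene, was at 5.01 and 5.28 RPM in males and 14.6 and 13.2 RPM in females (log2 fold change 1.28 ± 0.35, limma, adjusted p = 0.00444), and the groups did not overlap. In the model of Hist1h3c 47.6% of the 3′ words occur in other genes, so some of its reads may come from other copies. Hist1h1a was called higher in females (adjusted p = 0.00284 by limma), with 39 reads against the 2 in males, a ratio of 13.49 per read sequenced (exact 95% interval 3.49 to 115). Hist1h2bc was higher in females by 0.66 ± 0.22 (limma, adjusted p = 0.0183), as was H2afy, at 475 and 543 RPM in females and 425 and 395 RPM in males (0.31 ± 0.09, adjusted p = 0.00973).

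On the other side, H2afy2 was lower in females by a log2 fold change of -1.37 ± 0.34 (limma, adjusted p = 0.00226) and H2afx by -0.39 ± 0.10 (adjusted p = 0.00265). H2afv was at 434 and 406 RPM in females and 475 and 570 RPM in males (-0.31 ± 0.10, limma, adjusted p = 0.0142), and H3f3b was also lower in females (-0.24 ± 0.09, adjusted p = 0.0306). The span of H2afy2 overlaps that of Aifm2, which was at 19.7 and 19.5 RPM in females and 8.35 and 4.23 RPM in males, the reverse order. Whether counting used strand is not given in the sources used here.

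In all, 8 of 22 genes differed between the sexes, 4 higher and 4 lower in females, beside 37.6% of all genes, and 15 had groups that did not overlap, beside 71.1%. Both shares were near those of all genes. All 13 clustered genes had a positive log2 fold change (12 with quantile normalization), with a median of 0.66, and 7 of 9 variants a negative one, with a median of -0.24, beside 0.05 over all genes. Clustered genes kept with no male library at 5 RPM, named above, count here too, and Hist1h2ac and Hist1h2ag met the level rule only with a female one. The rule can thus favour positive signs and a higher female sum of the kept genes, so the sign count is no independent evidence. The clustered genes without Hist1h2bc summed to 52.8 and 43.3 RPM in males and 104 and 77.0 RPM in females, against 104 and 84.6 RPM at E11.5. The 56 clustered genes under the level limit, as a set, summed to 38.4 and 37.7 RPM in males, 85.1 and 78.1 RPM in females and 82.2 and 72.9 RPM at E11.5. In both sums every male library lay below every female one, and females overlapped with E11.5.

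Each of these 8 calls ended in at least 1 alternative. Without male replicate 1 the calls of H2afy2 and Hist1h1a ended (limma, adjusted p = 0.0553 and 0.0581), and without male replicate 2 those of H2afv, H3f3b, Hist1h2bc and H2afy (0.260, 0.299, 0.261 and 0.0970). Without female replicate 1, 5 calls ended: those of H2afx (limma, adjusted p = 0.0649), H3f3b (0.0672), Hist1h2bc (0.144), Hist1h3c (0.0583) and Hist1h1a (0.109). Without female replicate 2 those of H2afv, H3f3b and H2afy ended (limma, adjusted p = 0.128, 0.191 and 0.192).

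Lists of cell cycle and histone supply genes were counted in the same fits, where 22.3% of all genes were called higher and 15.9% lower in males than at E11.5, 31.2% and 20.0% in females, and 21.2% and 16.4% in females against males. Of 26 S phase genes, 3 were higher and 14 lower in males than at E11.5, 9 higher and 10 lower in females, and 12 higher and 1 lower in females than in males. Rrm2, a ribonucleotide reductase subunit that makes deoxynucleotides, was at a mean of 68.6 RPM at E11.5, 21.8 RPM in males and 44.0 RPM in females, and Cdt1, a replication licensing factor, at 222, 118 and 171 RPM. Both were called in all 3 comparisons. The replication clamp gene Pcna was at 927, 663 and 755 RPM, lower in both sexes than at E11.5. Of 20 G2 and M phase genes, 6 were higher and 3 lower in males, and 8 higher and 6 lower in females. Between the sexes the G2 and M phase genes leaned the other way from those of S phase, with 4 higher and 9 lower in females than in males. Of 7 tested genes of cell cycle exit, 3 were higher and 0 lower in each sex, including Cdkn1c, a cyclin-dependent kinase inhibitor, at 10.9, 38.4 and 61.1 RPM. Of the same 7 genes, 3 were higher and 1 lower in females than in males. The part of the cell cycle in the histone levels was not tested.

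Of 23 tested genes of histone mRNA synthesis and 3′ processing, 4 were higher and 1 lower in males than at E11.5, and 5 higher and 4 lower in females. These shares lay below those of all genes in both directions. Slbp, which encodes the protein that binds the stem-loop, rose from a mean of 275 RPM to 364 RPM in males and 425 RPM in females (limma, adjusted p = 0.00316 and 2.14e-05). The part of Slbp in the histone levels was not tested. Ccne1, the cyclin E1 gene, whose product with CDK2 turns on histone transcription, fell from 75.6 to 33.6 and 43.0 RPM, and Cdk2 rose from 18.4 to 46.3 and 39.0 RPM. Cstf2, a polyadenylation factor gene, rose in females from 82.9 to 228 RPM (limma, adjusted p = 8.82e-10) and was at 84.8 RPM in males. Casp8ap2, needed at histone gene loci, rose in females from 33.3 to 71.1 RPM.

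Of 34 tested genes of histone chaperones and exchange, 7 were higher and 3 lower in males, and 9 higher and 7 lower in females, shares near or below those of all genes. Rbbp7, a subunit of several histone-binding complexes, rose from 289 to 530 RPM in males and 628 RPM in females. Ruvbl2, an ATPase of the complexes that exchange H2A.Z, fell from 393 to 234 and 97.6 RPM, and the chaperone gene Set from 1263 to 1023 and 543 RPM. Cenpa, the centromeric H3 variant gene, whose name lies outside the symbols used here, fell from 524 to 329 RPM in males and 372 RPM in females (limma, adjusted p = 1.14e-06 and 5.44e-05).

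From E10.5 to E11.5 H2afj was the 1 gene of 22 called, beside 4.28% of all genes (2.31% higher and 1.97% lower), and 11 of the 22 had groups that did not overlap, beside 46.2%. It rose from 20.3 and 16.3 RPM to 38.4 and 34.2 RPM, with no overlap, a log2 fold change of 0.95 ± 0.25 (limma, adjusted p = 0.0279). The call ended with any 1 of the 4 libraries left out: adjusted p was 0.102 and 0.205 without E10.5 replicate 1 or 2 and 0.107 and 0.0587 without E11.5 replicate 1 or 2 (limma). Hist1h2bc was lower at E11.5 in each library, by -0.53 ± 0.22, without passing the test (adjusted p = 0.169 by limma), though it passed with voom on reads recovered from the RPM (adjusted p = 0.0160). Summed over the clustered genes, the level was 210 and 227 RPM at E10.5 and then 193 and 181 RPM, and without Hist1h2bc 80.8 and 89.0 RPM and then 104 and 84.6 RPM. The median log2 fold change of the clustered genes was 0.20, with 7 of 13 positive. The median log2 fold change was -0.01 over the 22 genes and 0.02 over all genes. Erythroid markers (6 genes) summed to 247 and 227 RPM at E10.5 and then to 16.8 and 6.26 RPM. Their part in these values was not tested. Of the S phase genes 0 were higher and 2 lower (Pcna and Mcm4), and of the histone mRNA genes 0 were called in either direction (limma, 2 at an unadjusted p under 0.05).

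In the floxed libraries H2afy2, the macroH2A2 gene, was the histone gene that passed the test. It was at 7.36, 13.3, 8.10 and 7.54 RPM in control libraries 1 to 4 and at 32.3, 23.6, 29.6 and 62.9 RPM in CKO-labelled libraries 1 to 4. Every CKO-labelled library lay above every control. The means were 9.08 ± 2.85 and 37.1 ± 17.6 RPM (SD, n = 4 each), 4.09 times as high in the CKO-labelled group, and the log2 fold change was 1.86 ± 0.28 (SE; limma, adjusted p = 0.00170). H2afy, the macroH2A1 gene, was at 547 to 630 RPM in controls and 605 to 654 RPM in CKO-labelled libraries and was not called (adjusted p = 0.839 by limma).

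The promoter window of H2afy2 is shown because the gene carried the 1 call of this comparison. H2afy2 spans 61738640 to 61784604 on chromosome 10 (GRCm38.p6), and the window lies around the start site 740 bases inside its 5′ end. Capitals mark CCAAT (as ATTGG) and GAAAG, the core of the motif that PRDM1 is known to bind. The search for GAAAG was added with the call known.
H2afy2, chr10:61783815-61784114, minus strand: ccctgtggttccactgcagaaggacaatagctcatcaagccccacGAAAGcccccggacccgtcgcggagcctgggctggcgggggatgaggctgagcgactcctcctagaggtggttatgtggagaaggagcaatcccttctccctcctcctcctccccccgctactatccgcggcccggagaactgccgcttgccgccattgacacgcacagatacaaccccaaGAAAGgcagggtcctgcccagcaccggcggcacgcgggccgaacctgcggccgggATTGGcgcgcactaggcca
GAAAG or CTTTC stood in 57.3% of all windows and in 6 of the 8 windows of variants (75%), so its presence does not set this gene apart.

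The call of H2afy2 held in 20 of 21 alternatives, among them leaving out each library, with log2 fold changes from 1.25 to 2.04 and a highest adjusted p of 0.0192 (limma, no filter on low values). It ended in the other, where the summed level of pre-granulosa markers was a covariate (log2 fold change 1.06, limma, adjusted p = 0.198). With that covariate 50 genes were called in place of 228. The 4 markers, Foxl2, Fst, Irx3 and Wnt4, of the supporting cells of the early ovary, summed to 14.6, 6.76, 9.47 and 37.5 RPM in CKO-labelled libraries 1 to 4 and to 0.883, 7.96, 1.31 and 4.71 RPM in controls 1 to 4. Their sum nearly separated the groups, control 2 alone lying above a CKO-labelled library. In that fit the covariate and the genotype can therefore hardly be told apart, and the part of such cells was not tested. The libraries ranked by this sum as they did by H2afy2 within the CKO-labelled group, and control 2 was highest in both among the controls. Foxl2 was at 0 in all controls and at no more than 0.232 RPM in CKO-labelled libraries.

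The 11 somatic and mesenchymal markers summed to 104.5, 19.5, 9.76 and 260 RPM in CKO-labelled libraries 1 to 4 and to 12.9, 73.2, 20.8 and 29.9 RPM in controls 1 to 4. CKO-labelled libraries 4 and 1 ranked first and second in this sum and in H2afy2, control 2 was highest of the controls in both, and CKO-labelled libraries 2 and 3 stood in the opposite order. Without control 1 and CKO-labelled 4 the log2 fold change was 1.498 (limma, adjusted p = 0.00155), and with the somatic and endothelial marker level as a covariate it was 1.70 (adjusted p = 0.000319). These exclusions and covariates were chosen after the data were seen. The endothelial part of the last covariate was mostly Pecam1. It was at 52.7 to 115 RPM in controls and 53.6 to 77.2 RPM in CKO-labelled libraries. Wild-type E11.5 libraries held 114 and 101 RPM of it, with the somatic and mesenchymal markers at 6.06 and 7.12 RPM. That covariate is thus no measure of somatic cells alone, and their part in the change was not tested. Aifm2, on the overlapping span, was at 4.71 to 9.12 RPM in controls and 5.45 to 12.5 RPM in CKO-labelled libraries.

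**Figure D4:**
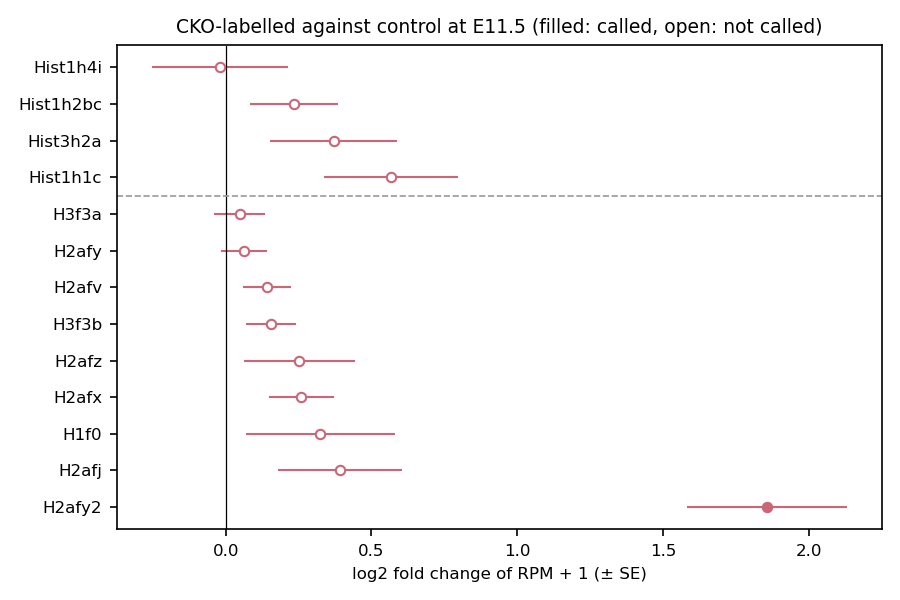
Log2 fold change (RPM + 1, ± SE) of the 13 histone genes tested in CKO-labelled against control libraries, n = 4 each, clustered genes above the dashed line and variants below it. The filled point, H2afy2 at 1.86, passed the test (limma, adjusted p under 0.05); 12 of the 13 points lie above 0, 11 of these open.

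Of the 22 genes, 13 reached 5 RPM in at least 4 floxed libraries and were tested, 4 clustered and 9 variant. The 1 call compares with 2.43% of the 9384 genes tested (1.93% higher and 0.501% lower), and 1 of 13 genes had groups that did not overlap, beside 8.19% of all genes. A further 2 genes were at an unadjusted p under 0.05, Hist1h1c (11.3 ± 3.93 and 16.8 ± 2.78 RPM, SD, n = 4 each; limma, adjusted p = 0.318) and H2afx (359 ± 49.3 and 428 ± 46.7 RPM, adjusted p = 0.366). The log2 fold change was positive for 12 of the 13 genes, with a median of 0.25, beside -0.01 over all genes, of which 4389 of 9384 were positive. H3f3a was at 1012 ± 60.7 and 1048 ± 101 RPM and H3f3b at 783 ± 47.1 and 872 ± 69.4 RPM (SD, n = 4 each). The quotient H3f3b over H3f3a was 0.769 to 0.784 in controls and 0.798 to 0.909 in CKO-labelled libraries, and was not tested.

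Hist1h2bc, which fell at E13.5 in the wild type, was at 53.7 to 84.5 RPM in controls and 64.3 to 94.4 RPM in CKO-labelled libraries (limma, adjusted p = 0.611). H2afz was at 52.1 RPM in control 1, 26.1 to 29.6 RPM in the other controls and 36.7 to 42.9 RPM in CKO-labelled libraries. Clustered genes summed to 94.1 to 150 RPM and 116 to 177 RPM, and all 22 genes to 3238 to 3542 RPM and 3521 to 4013 RPM, so both sums overlapped between the groups. CKO-labelled library 4, with the highest somatic sum, had the highest value of both.

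Among the other lists, 3 gave 1 call each, where 2.43% of all genes tested were called (1.93% higher). Of 21 tested genes of histone mRNA synthesis and processing, Cdk2 was called, from a mean of 13.1 to 33.4 RPM (limma, adjusted p = 0.00209). Of 34 chaperone and exchange genes it was Hjurp, which loads CENP-A at centromeres, from 4.47 to 12.6 RPM (adjusted p = 0.0432 by limma), and of 26 S phase genes Uhrf1, which reads methylated histone H3 and hemimethylated DNA, from 4.48 to 13.2 RPM. All 3 were higher in CKO-labelled libraries. Whether these 3 calls hold in the alternatives was not examined. Of 20 G2 and M phase genes and 6 genes of cell cycle exit 0 were called (limma, with 0 at an unadjusted p under 0.05 in either list).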

How the data were processed

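Complementary DNA was amplified with 11 PCR cycles, per the labels' protocols. Reads were handled with cutadapt 1.3, TopHat 1.4.1 and Cufflinks 2.2.0 on build mm10, per the submitters' processing notes. The values the authors deposited are RPM per gene, in 1 table for the floxed and 1 for the wild-type libraries. Steps between low values gave the depth, and the 92 spike-in rows of the wild-type table were left out. A pseudocount of 1 RPM was added, and limma 3.58.1 (eBayes with trend, R 4.3.3) was run on the log2 values of genes reaching 5 RPM in 4 floxed libraries, or in 2 of the wild type, all wild-type groups in 1 fit. Calls needed an adjusted p under 0.05 (Benjamini-Hochberg, over all genes). The wild-type comparisons share libraries. Every histone gene that met the level rule is named or counted, and from the other lists called genes of known role are named, chosen after their values were seen. The members and lists were chosen with earlier results of these data known. The fit was tested on simulated data. Gene positions and promoters came from RefSeq (GRCm38.p6; 85 of 85 and 77 of 85 histone genes matched by Entrez identifier), and transcript models from GENCODE M21 (83 of 85). Alternatives changed the pseudocount to 0.1 or 10, dropped the filter or set it at 20 RPM, and changed scaling, the variance model, the groups in the fit, a replicate block, each library left out and, chosen after the data were seen, voom, 2 libraries left out together and marker covariates.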

Additional observations from a re-analysis of the deposited data

Results flagged for a closer look

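In 44 groups of 4 floxed libraries, 4 held a library far from the other 3, where chance flags about 1 in 20 groups. H2afz was at 52.1 RPM in control 1 against 26.1 to 29.6 RPM in the other controls, and H2afy2 at 13.3 RPM in control 2 against 7.36 to 8.10 RPM. H2afv was at 428 RPM in CKO-labelled library 4 against 472 to 479 RPM in the others. Hist1h2ap, a gene of shared 3′ sequence, was at 1.88 RPM in control 4 against 0.589 to 0.657 RPM in the other controls, values near those of 3 reads.

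The change from E11.5 to E13.5 differed between females and males for 8 genes. Both changes share the E11.5 libraries, so this difference is the same test as that of E13.5 females against males in the report and adds nothing to it, and each of the 8 calls ended in at least 1 alternative. As log2 change in females minus that in males, the differences were -1.37 for H2afy2, -0.39 for H2afx, -0.31 for H2afv and -0.24 for H3f3b. They were 1.94 for Hist1h1a, 1.28 for Hist1h3c, 0.66 for Hist1h2bc and 0.31 for H2afy.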

How the results depend on the processing

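No called histone gene changed direction in the alternatives run. In the CKO-labelled comparison the count was 1 and fell to 0 with the pre-granulosa marker covariate, which nearly separated the groups (1 to 1 with a library left out). For E11.5 against E10.5 it was 1, and it was 0 with no filter on low values, without trend, with array quality weights and with only the groups compared, 2 with voom (H2afj and Hist1h2bc), and 0 to 0 with a library left out. For males against E11.5 it was 10, 5 with a filter at 20 RPM, which left fewer genes tested, and 8 to 10 with a library left out. For females it was 9, 5 with no filter, and 5 to 8 (5 without female replicate 1). For females against males it was 8, 5 with no filter, 5 at 20 RPM, 4 without trend, and 3 to 7 (3 without female replicate 1). Other causes were not tested. Over all genes, the 228 calls of the CKO-labelled comparison were 139 at 20 RPM, 50 with the pre-granulosa covariate and 137 without CKO-labelled replicate 2, and the 460 for E11.5 were 80 with no filter, 27 without trend, 279 with array weights, 79 with only the groups compared, 105 without E10.5 replicate 1 and 167 without E10.5 replicate 2. The labels state no pairing by replicate number. The correlation of the deviations of same-numbered libraries was 0.241, 0.0198, 0.252 and 0.182 in the floxed set, where unlike numbers gave -0.229 to 0.183 and 3 of 4 controls correlated best with their own number, a hint from the data and not from the design. It was at most 0.0331 in the wild type. With the replicate number as a block the counts were 1, 1, 10, 9 and 8, as without it. An edgeR test on recovered reads was planned and not run, since some genes had fractional values. At 5 RPM a gene rests on few reads, and its change is limited by depth.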

Other observations

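The floxed and wild-type libraries come from separate tables and differ in strain and in alleles. A 4-OHT dose is stated for the floxed set only and an RNA input for the wild type only. Levels between the sets are therefore given with no test. Hist1h2ao was at 15.7 and 20.9 RPM in wild-type PGCs at E11.5 and at 0.589 to 3.06 RPM in the floxed controls of the same stage. Hist1h3c was at 7.97 and 8.08 RPM and at 2.65 to 3.502 RPM. H2afj was at 34.2 and 38.4 RPM and at 8.83 to 16.6 RPM, while H3f3a was at 1066 and 1120 RPM and at 941 to 1087 RPM. Other genes were higher in the floxed controls. H2afy was at 453 and 480 RPM in the wild type and 547 to 630 RPM in those controls, and H3f3b at 598 and 670 RPM and 723 to 838 RPM. Of the 22 genes, 9 clustered ones reached 5 RPM in too few floxed libraries to be tested there.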
